A study of Mus musculus with 8 samples.

Results

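The mitochondrial ribosomal protein genes were taken by name, as the genes whose symbol starts with Mrpl (large subunit) or Mrps (small subunit) followed by a number. There were 77 such genes among 19938 genes measured by expression array, 48 with an Mrpl and 29 with an Mrps symbol, and all 77 lay above the filter on low values that left 11963 genes for testing. Mrpl53 was not included because its probe also names Ccdc142. The samples came from 4 male C57BL/6J mice (M24, M48, M50 and M60), injected with an AAV vector at 2 to 3 months of age. From each mouse, 18 months later, 1 hepatocellular carcinoma and 1 piece of adjacent normal liver were snap frozen and hybridised to 1 array each. All 8 samples therefore share the vector injection, and adjacent liver is not liver of an uninjected mouse. The labels do not name the vector's insert, and 1 tumor per mouse stands for the tumor group. The values are log2 expression values as deposited, differences are tumor minus adjacent within a mouse (n = 4 pairs), and a gene rose or fell, in the words used here, if its adjusted p from limma was under 0.05.

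Mitochondrial ribosomes translate the few proteins encoded by mitochondrial DNA, all of them core subunits of the respiratory chain and ATP synthase. Their RNA comes from mitochondrial DNA, whereas every protein of the particle is encoded in the nucleus, made in the cytosol and imported. Some of these proteins have bacterial counterparts, and others exist only in mitochondrial ribosomes. Hepatocytes are rich in mitochondria, and the particle's output is needed for oxidative phosphorylation, on which urea and glucose synthesis in the liver depend.

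In these tumors the mitochondrial ribosomal protein genes differed little from adjacent liver. Of the 77 genes, 3 rose and 9 fell, and 65 did not pass the test. That is 15.6% of the genes called, against 31.9% of all 11963 tested genes, of which 16.3% were called higher and 15.7% lower. At an unadjusted limma p under 0.05 there were 24 of the 77 (31.2%), beside 42.5% of all tested genes. In all 4 mice 21 members were lower in the tumor and 10 higher, beside 3023 and 2947 of all tested genes. The median difference of the 77 genes was -0.064, beside 0.0008 over all tested genes, and their differences ran from -0.80 for Mrpl14 to 0.36 for Mrpl54. Only 2 of the 77, Mrpl14 and Mrpl49, differed by more than 0.5 log2 units, beside 22.8% of all tested genes. The difference was under 0.25 in either direction in 58 of the 77 genes. Without M24 the counts were 0 higher and 4 lower, without M50 1 and 4, and without M60 0 and 4, while 23.4%, 21.2% and 19.3% of all tested genes were called in these fits. Without M48 they were 1 higher and 10 lower, beside 29.1% of all tested genes, and with no replicate block 1 and 8, where 29.6% of all tested genes were called. The median over the 77 genes was -0.122 without M48 and -0.029 without M60. In bulk tissue fewer cells of a type and less RNA per cell cannot be told apart.

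Genes with a mean level from the members' 5th to their 95th percentile, 6.195 to 9.526, numbered 6836, and 34.6% of them were called. The median standard error (SE) of a member's difference was 0.092, beside 0.106 over all tested genes. For 56 of the 65 genes that did not pass, the 95% interval of the difference from limma, not adjusted for the number of genes, lay within 0.5 log2 units of 0, and for all 65 it lay within 1 unit, which is a 2-fold change. The 9 genes with a wider interval than 0.5 were Mrpl19, Mrpl23, Mrpl30, Mrpl34, Mrpl36, Mrpl37, Mrpl52, Mrps10 and Mrps18b. The 4 tumor values and the 4 adjacent values did not overlap in 19 of the 77 genes (24.7%), beside 30.5% of all tested genes.

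**Figure D1:**
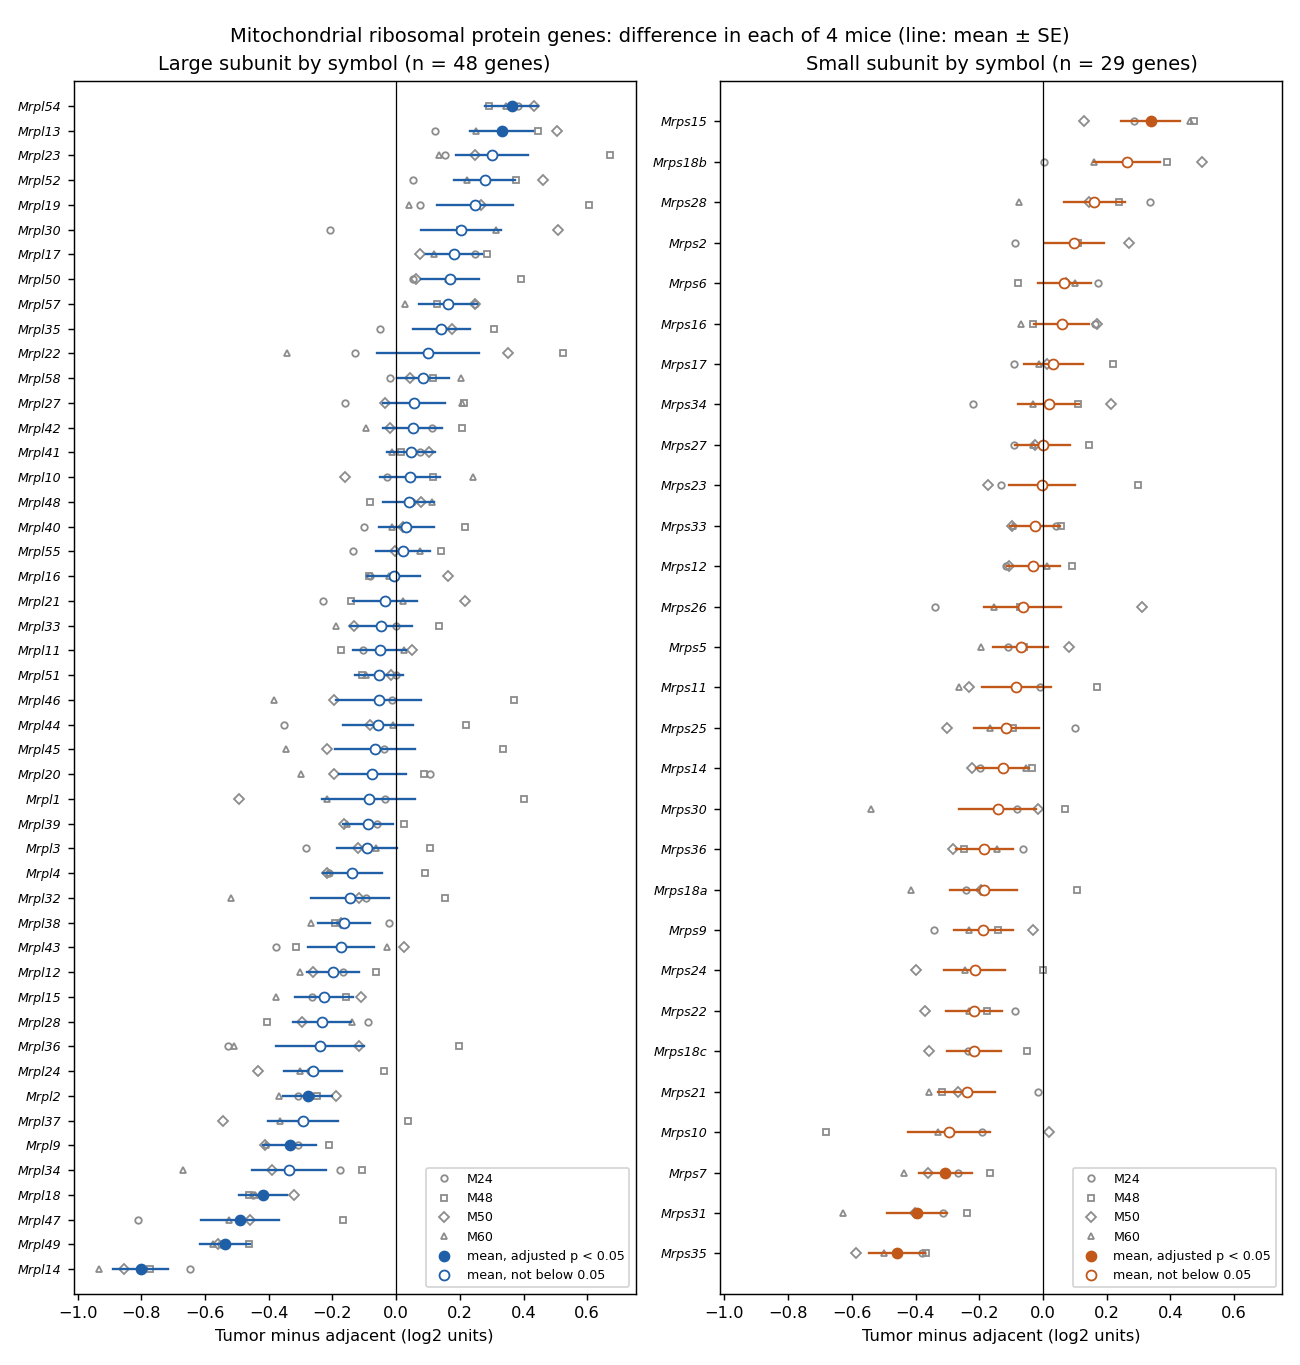
Tumor minus adjacent difference (log2 units) of all 77 mitochondrial ribosomal protein genes, with small grey symbols for the 4 mice, large points for the mean and lines for ± SE; filled points passed the test. Most means lie within 0.25 of 0, the 9 filled points on the left include Mrpl14 at -0.80, and the 3 on the right are Mrpl54, Mrpl13 and Mrps15.

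The starts of the members' genes are shown here for 5 genes that fell and for Mrps15, the 1 riser held in the sequence table. Of these, 2 start back to back with a neighbour that also fell (described further below). The sequences are RefSeq's, build GRCm38.p6, from 250 bases before to 50 bases after the gene start, written 5′ to 3′ on the gene's strand. Capitals mark matches, on either strand, to the core of the NRF1 motif (GCATGCGC), the ETS motif (CCGGAAG) or the core of the YY1 motif (AAGATGG), 3 motifs known from promoters of nuclear genes for mitochondrial proteins.
Mrpl14, chr17:45686099-45686398, plus strand: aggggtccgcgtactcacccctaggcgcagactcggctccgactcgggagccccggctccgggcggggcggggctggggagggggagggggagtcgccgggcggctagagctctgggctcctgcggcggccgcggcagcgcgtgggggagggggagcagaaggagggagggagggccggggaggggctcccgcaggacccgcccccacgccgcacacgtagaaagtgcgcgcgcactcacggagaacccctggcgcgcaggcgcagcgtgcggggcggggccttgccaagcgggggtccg
Mrpl49, chr19:6057706-6058005, minus strand: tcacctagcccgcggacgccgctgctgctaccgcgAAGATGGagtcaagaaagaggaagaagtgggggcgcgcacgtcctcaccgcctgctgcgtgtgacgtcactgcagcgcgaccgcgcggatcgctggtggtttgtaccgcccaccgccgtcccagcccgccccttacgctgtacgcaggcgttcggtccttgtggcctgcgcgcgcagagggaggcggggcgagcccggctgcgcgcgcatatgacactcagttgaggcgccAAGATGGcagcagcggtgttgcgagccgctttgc
Mrpl47, chr3:32736706-32737005, minus strand: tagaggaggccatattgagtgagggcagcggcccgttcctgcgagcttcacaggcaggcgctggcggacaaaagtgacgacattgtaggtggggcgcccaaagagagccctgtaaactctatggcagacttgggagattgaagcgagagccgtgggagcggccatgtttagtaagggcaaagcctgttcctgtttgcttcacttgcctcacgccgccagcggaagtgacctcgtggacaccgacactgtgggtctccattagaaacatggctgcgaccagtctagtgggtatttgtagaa
Mrpl18, chr17:12916042-12916341, minus strand: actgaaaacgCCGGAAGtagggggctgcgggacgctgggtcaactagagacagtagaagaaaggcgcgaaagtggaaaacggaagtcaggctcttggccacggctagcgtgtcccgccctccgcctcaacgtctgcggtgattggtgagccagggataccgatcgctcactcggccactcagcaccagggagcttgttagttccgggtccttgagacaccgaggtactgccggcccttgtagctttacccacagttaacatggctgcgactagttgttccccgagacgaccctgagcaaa
Mrpl9, chr3:94443086-94443385, plus strand: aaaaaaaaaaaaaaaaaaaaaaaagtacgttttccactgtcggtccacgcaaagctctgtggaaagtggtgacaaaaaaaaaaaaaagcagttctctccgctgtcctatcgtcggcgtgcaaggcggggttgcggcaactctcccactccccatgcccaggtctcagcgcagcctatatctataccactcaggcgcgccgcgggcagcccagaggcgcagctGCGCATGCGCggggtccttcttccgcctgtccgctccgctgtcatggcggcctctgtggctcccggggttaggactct
Mrps15, chr4:126046678-126046977, plus strand: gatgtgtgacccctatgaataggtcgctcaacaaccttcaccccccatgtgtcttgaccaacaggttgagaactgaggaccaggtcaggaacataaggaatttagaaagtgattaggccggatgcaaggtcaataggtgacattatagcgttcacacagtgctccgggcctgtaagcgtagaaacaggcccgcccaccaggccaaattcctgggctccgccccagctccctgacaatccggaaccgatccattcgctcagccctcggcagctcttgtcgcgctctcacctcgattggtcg

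The promoters of Mrpl14, Mrpl47 and Mrps15 hold none of these letters in the window. The Mrpl9 promoter holds the NRF1 core on both strands, overlapping as a palindrome with match starts at positions -28 and -26, where 0 is the gene start. Mrpl49 holds the YY1 core at both ends of the window, from positions -215 and 16, and Mrpl18 holds the ETS motif from position -240. In all, 68 of the 77 genes were found in the promoter table, with 74 promoters. The ETS motif was found in 25 of these promoters (33.8%), the YY1 core in 13 (17.6%) and the NRF1 core in 8 (10.8%). Over 12164 promoters of tested genes the shares were 16.2%, 6.88% and 4.83%, and over all 32851 listed promoters 8.86%, 6.34% and 2.71%. The median difference was -0.0024 for the 8 genes with the NRF1 core and -0.068 for the other 60, and -0.03 for the 25 genes with the ETS motif and -0.086 for the other 43. For the 13 genes with the YY1 core it was -0.144, and -0.056 for the other 55. A match describes letters only, and no binding was measured.

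Among large subunit proteins of bacterial type, Mrpl14 showed the largest fall of all members. Mrpl14 belongs to the face that meets the small subunit, and it is contacted by the assembly factor Malsu1. Adjacent liver of M24, M48, M50 and M60 had values of 8.11, 8.26, 8.21 and 8.38, and the tumors, in the same order, 7.46, 7.49, 7.35 and 7.44, so every tumor lay well below every adjacent sample. The gene fell by 0.80 (SE 0.0864, adjusted p = 0.00133), which is 1.74-fold lower, and the call was kept under all 11 alternatives (adjusted p from 0.000249 to 0.00891). Malsu1 itself stood at -0.13 (adjusted p = 0.283).

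Mrpl18 belongs to the central protuberance, where its bacterial counterpart binds 5S ribosomal RNA. Its adjacent values were 9.67, 9.54, 9.71 and 9.70 in M24, M48, M50 and M60, and its tumor values 9.23, 9.08, 9.39 and 9.26, again with no overlap. The gene fell by 0.42 (SE 0.0757, adjusted p = 0.0077), by nearly the same amount in 3 mice and by 0.32 in M50, and was called under all 11 alternatives (adjusted p from 0.00598 to 0.0438). Mrpl47, the counterpart of bacterial L29 near the mouth of the exit tunnel, had adjacent values of 6.49, 5.92, 6.24 and 6.30 and tumor values of 5.68, 5.76, 5.78 and 5.77. The tumors were nearly equal and the adjacent samples were spread, with M48 lowest. Mrpl47 fell by 0.49 (SE 0.123, adjusted p = 0.0241). A probe of the same gene with a lower level gave -0.085 (adjusted p = 0.571), and with the mean of both probes the call was lost (difference -0.29, adjusted p = 0.0612). It was also lost without M24 (0.0837), M50 (0.0735) and M60 (0.0846).

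Falls of Mrpl9 and Mrpl2 were smaller. Mrpl9, the counterpart of bacterial L9, was at 7.97, 7.94, 8.20 and 8.17 in adjacent liver of M24, M48, M50 and M60. In the tumors it was at 7.66, 7.73, 7.79 and 7.76, below all adjacent values. It fell by 0.33 (SE 0.0824, adjusted p = 0.0229), but not without M24 (adjusted p = 0.0695), M50 (0.0811) or M60 (0.104). Mrpl2 lies close to the peptidyl transferase centre, where peptide bonds are formed. Adjacent values of Mrpl2 were 8.999, 8.987, 9.12 and 9.17 and tumor values 8.69, 8.74, 8.94 and 8.80, without overlap. Mrpl2 fell by 0.28 (SE 0.0774, adjusted p = 0.0347). That call was lost when any mouse was left out (adjusted p = 0.111 without M24, 0.0641 without M48, 0.0633 without M50 and 0.155 without M60) and with no filter on low values (0.0596).

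The rise in the bacterial-type group was that of Mrpl13, the counterpart of bacterial L13. It stood at 7.58, 7.12, 7.33 and 7.52 in adjacent liver of M24, M48, M50 and M60 and at 7.70, 7.56, 7.83 and 7.77 in the tumors. It was higher in the tumor in 4 of 4 mice, although the lowest tumor (M48) lay just under the highest adjacent sample (M24). The difference was 0.33 (SE 0.0976, adjusted p = 0.0419), close to the threshold. The call was lost without M24 (adjusted p = 0.0531), M48 (0.108), M50 (0.142) or M60 (0.104), with no replicate block (0.0603), with no filter (0.0621) and with centred arrays (0.052). In this group of 30 genes 1 rose and 5 fell, with a median of -0.081.

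Of 20 large subunit proteins classed here as mitochondrial additions, Mrps18a and Mrps30 among them, 1 rose and 1 fell, with a median of -0.055. Mrpl49 had adjacent values of 8.08, 7.91, 8.21 and 8.21 in M24, M48, M50 and M60 and tumor values of 7.53, 7.45, 7.65 and 7.64. All tumors lay below all adjacent samples, and the drop was alike in the 4 mice, from -0.58 to -0.46. Mrpl49 fell by 0.54 (SE 0.078, adjusted p = 0.00359) and was called under all 11 alternatives (adjusted p from 0.00263 to 0.0222). Mrpl54 went the other way, from 6.66, 6.77, 6.74 and 6.84 to 7.05, 7.06, 7.17 and 7.19, also without overlap. It rose by 0.36 (SE 0.0834, adjusted p = 0.0179), the largest rise among the members, with differences of 0.29 to 0.43 in the mice. The call was lost without M24 (adjusted p = 0.0636), M50 (0.0668) or M60 (0.0709).

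Genes with a small subunit symbol, Mrps18a and Mrps30 again included, gave 1 rise and 3 falls among 29. Mrps35 and Mrps31, both known only from mitochondrial ribosomes, fell. Mrps35 was at 7.09, 6.84, 7.17 and 7.17 in adjacent liver of M24, M48, M50 and M60 and at 6.71, 6.47, 6.58 and 6.67 in the tumors, with no overlap. It fell by 0.46 (SE 0.0887, adjusted p = 0.00982) and kept its call under all 11 alternatives (adjusted p from 0.00705 to 0.0476). Mrps31 was at 8.08, 7.64, 8.19 and 8.11 in adjacent liver and at 7.77, 7.41, 7.78 and 7.48 in the tumors. Both tissues of M48 were low, so the groups overlapped although the tumor was lower in 4 of 4 mice. Mrps31 fell by 0.39 (SE 0.0951, adjusted p = 0.0211), and the call was lost without M24 (adjusted p = 0.0579), M50 (0.0695) or M60 (0.095) and with no replicate block (0.0665).

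Mrps7, the counterpart of bacterial S7 in the head of the small subunit, was at 8.96, 8.87, 9.01 and 9.14 in adjacent liver of M24, M48, M50 and M60. The tumors were within a narrow span below these, at 8.69, 8.71, 8.65 and 8.71. Mrps7 fell by 0.31 (SE 0.083, adjusted p = 0.0313), a call lost without M24 (adjusted p = 0.0851), M50 (0.098) or M60 (0.144) and with no filter (0.0515). Mrps15 binds the central domain of the small ribosomal RNA. Its values were 9.16, 8.68, 9.16 and 8.91 in adjacent liver and 9.44, 9.15, 9.28 and 9.37 in the tumors. Each tumor was above its own adjacent sample, while the groups met at about the same value. Mrps15 rose by 0.34 (SE 0.0912, adjusted p = 0.0312), but the call was lost without M24 (adjusted p = 0.0837), M48 (0.0847) or M60 (0.136) and with no replicate block (0.0686).

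**Figure D2:**
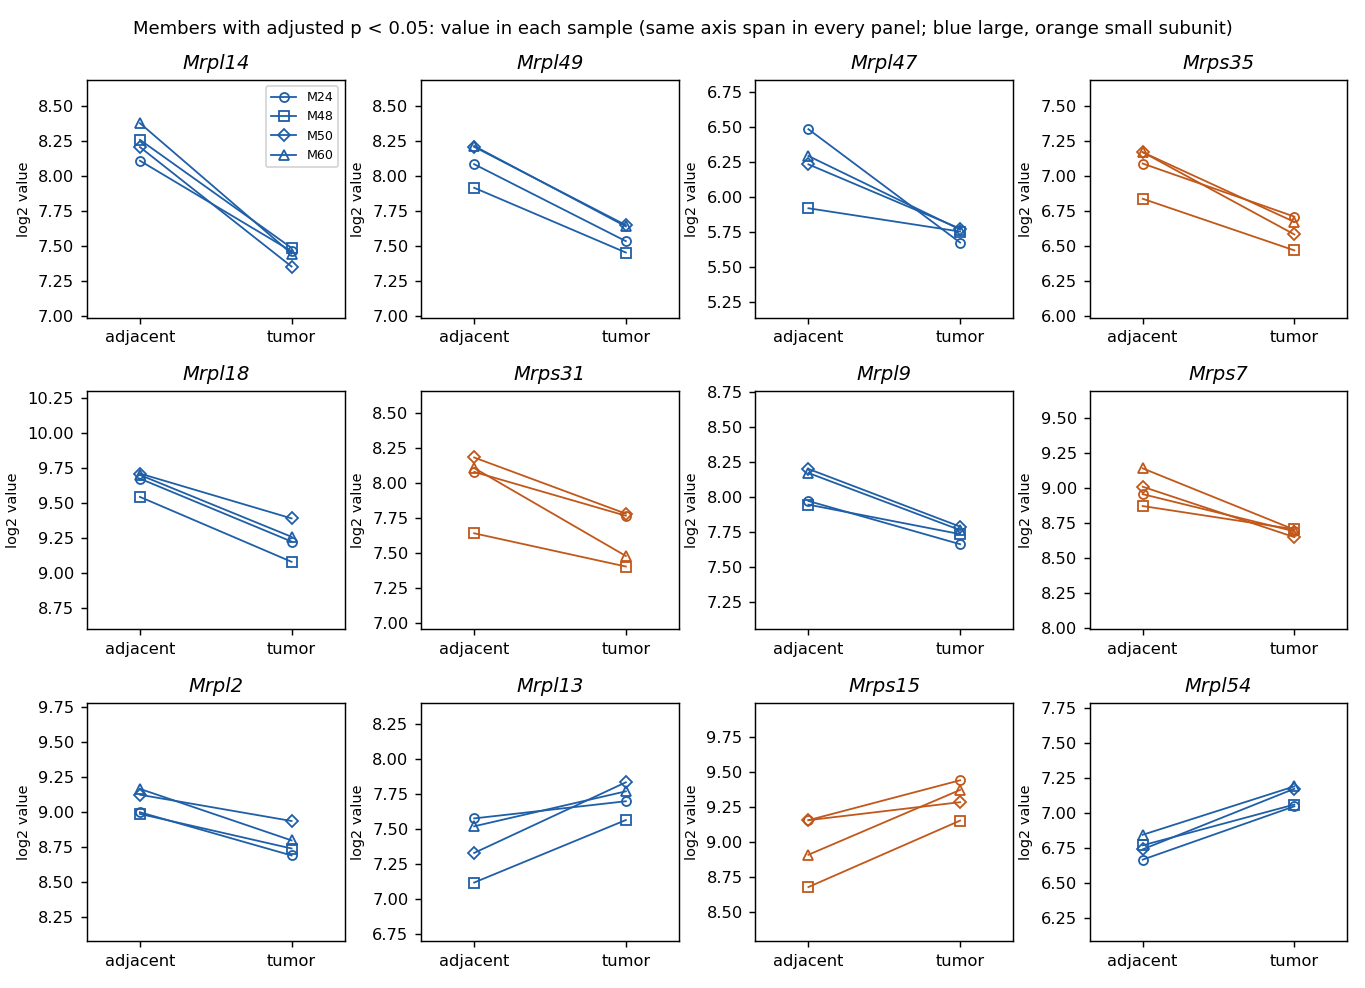
Log2 value of the 12 mitochondrial ribosomal protein genes that passed the test, in adjacent liver and tumor of each mouse (lines join the samples of a mouse; axes differ in level but span the same range). The lines of Mrpl14 drop most, from 8.11 to 8.38 in adjacent liver to 7.35 to 7.49 in tumors, and those of Mrpl54, Mrpl13 and Mrps15 go up.

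Members at other sites of the particle had these values. In the stalk that recruits translation factors, Mrpl12 was at 8.92, 8.83, 8.92 and 9.09 in adjacent liver of M24, M48, M50 and M60 and at 8.75, 8.76, 8.66 and 8.78 in the tumors. These groups did not overlap, yet the difference of -0.20 (SE 0.0814) did not pass (adjusted p = 0.111). Its stalk partner Mrpl10 stood at 0.042 (adjusted p = 0.765). At the exit tunnel, where Mrpl47 fell, Mrpl45, which holds the particle to the inner membrane, stood at -0.066 (adjusted p = 0.726), and Mrpl44 at -0.056 (adjusted p = 0.733). Mrps12 of the decoding site differed by -0.03 (adjusted p = 0.817). The differences nearest to 0 were those of Mrps27 (-0.00042), Mrps23 (-0.0023) and Mrpl16 (-0.0079).

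The Mrps18 family has 3 members related to bacterial S18, of which Mrps18b and Mrps18c sit in the small subunit and Mrps18a, despite its symbol, in the large one. In the classes used here Mrps18c counted as the bacterial type and the other two as mitochondrial additions. Mrps18c was at 9.87, 9.68, 9.74 and 9.86 in adjacent liver of M24, M48, M50 and M60 and at 9.64, 9.63, 9.39 and 9.63 in the tumors, a difference of -0.22 (adjusted p = 0.0948). Mrps18b was at 9.48, 9.39, 9.43 and 9.46 in adjacent liver and at 9.48, 9.78, 9.93 and 9.62 in the tumors, a difference of 0.26 (adjusted p = 0.102). In both genes the 2 tissues did not overlap, and the differences had opposite signs, but neither passed the test. Mrps18a differed by -0.19 (adjusted p = 0.227). Mrps30 is another large subunit protein with a small subunit symbol and stood at -0.14 (adjusted p = 0.413), with -0.54 in M60 alone and -0.082 to 0.068 in the other mice. Mrps36, the small subunit symbol with the lowest mean level, whose product is now known as part of the oxoglutarate dehydrogenase complex, had a mean level of 4.66, just above the filter at 4.597, and differed by -0.18 (adjusted p = 0.166).

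Large and small subunit gave close values. The median difference was -0.055 over 48 Mrpl genes and -0.084 over 29 Mrps genes. Without M48 these were -0.117 and -0.122, without M60 -0.022 and -0.034, and after quantile normalization -0.05 and -0.1225. Called genes made up 16.7% of the first and 13.8% of the second. With Mrps18a and Mrps30 counted in the large subunit and Mrps36 left out, the medians were -0.056 over 50 genes and -0.067 over 26. Within mice, the large subunit median of M24, M48, M50 and M60 was -0.091, 0.111, -0.097 and -0.095. The small subunit median was -0.092, -0.03, -0.098 and -0.154 in the same order. The large minus small gap was thus 0.00094 in M24, 0.00088 in M50, 0.058 in M60 and 0.141 in M48, and its size came mainly from 1 mouse. No test was made of the gap, because the genes of a subunit are not replicates.

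M48 stood apart through its adjacent sample. Its adjacent liver had the lowest value of the 4 adjacent samples in 56 of the 77 genes (72.7%), beside 34.2% of all tested genes. The mean over large subunit genes was 7.76 in the adjacent liver of M48 and 7.95, 7.97 and 8.03 in that of M24, M50 and M60, whereas the tumors ranged from 7.82 to 7.90. For the small subunit the adjacent means were 7.62 in M48 and 7.74 to 7.81 in the others, and the tumor means ran from 7.61 to 7.69. In the tumors M48 was the lowest in 28 of 77 genes (36.4%), beside 23.7% of tested genes. Members lay below 0 in 33 of 77 cases in M48, against 56 in M24, 47 in M50 and 55 in M60. The adjacent liver of M48 was also lowest for 53 of 71 nuclear respiratory chain genes (74.6%) but for 1 of 56 cytosolic ribosomal protein genes (1.79%). Without M48 the median difference of the 77 genes was -0.122, and Mrpl24 and Mrpl37 were called in addition.

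**Figure D3:**
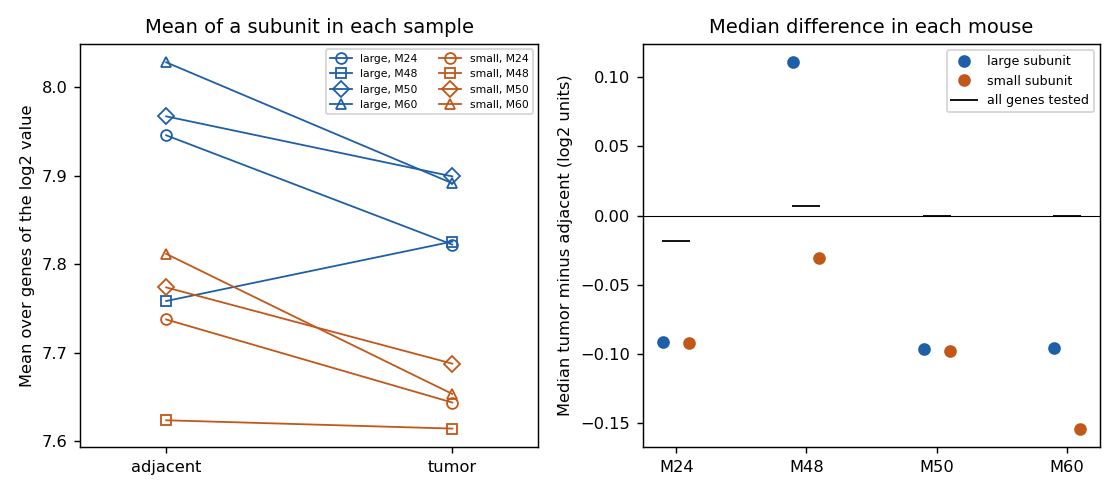
Left, mean log2 value over the large subunit (blue) and small subunit (orange) genes in each sample; right, median tumor minus adjacent difference in each mouse, with bars for all tested genes. Adjacent liver of M48 is the lowest adjacent sample for both subunits (7.76 and 7.62), and only its large subunit median, 0.111, lies above 0; levels of the 2 subunits come from different probes and are not comparable.

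The rest of the mitochondrial translation apparatus was read from lists. Of the mitochondrial ribosomal proteins with other symbols, 4 were tested: Chchd1 fell by 0.50 (SE 0.109, adjusted p = 0.0149, and 0.0619 without M24 and 0.0638 without M60). Gadd45gip1 (-0.30), Ptcd3 (0.028) and Dap3 (0.27) did not pass. Among 25 factors of ribosome assembly 1 rose and 3 fell, with a median of -0.143. Mterf3, needed for large subunit assembly, fell by 0.61 (adjusted p = 0.00257) and was called under all alternatives run. The ribosomal RNA methyltransferase Nsun4 fell by 0.51 (adjusted p = 0.0195, and 0.0666 without M50 and 0.0818 without M60) and the GTPase Noa1 by 0.48 (0.0327, and 0.0591 to 0.119 without M48, M50 or M60). Mettl15, a methyltransferase of the small ribosomal RNA, rose by 0.42 (adjusted p = 0.0327), and not without M24 (0.114), M48 (0.099) or M50 (0.0798), with no replicate block (0.0704) or after quantile normalization (0.0654).

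Of 15 translation factors 0 rose and 3 fell, with a median of -0.169; at an unadjusted p under 0.05 there were 5 in all. Letm1, an inner membrane ion exchanger linked to mitochondrial ribosomes, fell by 0.70 (adjusted p = 0.00655) under all alternatives run. The GTPase Guf1 fell by 0.44 (0.0263, and 0.0982 without M24 and 0.0972 without M50). The elongation factor Gfm1 fell by 0.27 (0.0458), and its call was lost without any 1 mouse (0.0535 to 0.177), with no filter (0.0762) and without the variance trend (0.0578). The elongation factor Tufm stood at 0.26 (adjusted p = 0.131). Of 18 genes that charge mitochondrial tRNA 1 rose and 6 fell, which is 38.9% called beside 31.9% of all tested genes, with a median of -0.106. Nars2, which charges tRNA with asparagine, fell by 0.91 (adjusted p = 0.00586), further than any ribosomal protein gene of the particle, and kept its call in all alternatives run. Vars2, Cars2, Hars2, Gatb and Gatc fell by 0.30 to 0.43, and Tars2 rose by 0.31. With a mouse left out this list's calls came to 0 higher and 1 to 3 lower, in fits that called 19.3% to 29.1% of all tested genes.

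Regulators of mitochondrial gene expression gave 2 rises and 2 falls among 20 tested genes, with a median of -0.174. The DNA helicase Twnk fell by 0.45 (adjusted p = 0.0196) and the polymerase subunit Polg2 by 0.74 (0.0141), while Lrpprc, which stabilises mitochondrial messenger RNA, rose by 0.26 (0.0455). The calls of Twnk and Lrpprc were lost with no replicate block (0.0513 and 0.0651). Without M24, M48, M50 and M60 in turn, Lrpprc gave 0.0895, 0.0763, 0.111 and 0.202; it was also lost with no filter (0.0743), with centred arrays (0.0717) and without the variance trend (0.059). Twnk lost its call without M24 (0.0544), M48 (0.0502) and M60 (0.078). The other riser was Myc. The factors whose motifs were searched did not pass: Nrf1 stood at -0.17 (adjusted p = 0.248), Gabpa of the ETS family at -0.18 (0.155), its partner Gabpb1 at 0.30 (0.053) and Yy1 at -0.26 (0.054). The coactivator Ppargc1a differed by -0.53 with a wide SE of 0.224 (adjusted p = 0.119).

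Beside these stood the products' partners and the other ribosome. Of 71 nuclear subunits of respiratory complexes 0 rose and 33 fell, which is 46.5% called beside 31.9% of all tested genes (15.7% lower). At an unadjusted limma p under 0.05 there were 47. The median was -0.295, with 70 of 71 differences below 0. In the mitochondrial ribosomal protein genes 50 of 77 differences were below 0. Of 56 cytosolic ribosomal protein genes 5 rose and 1 fell, which is 10.7% called. The 1 that fell was Rps4l (-0.70, adjusted p = 0.00412). The median of this list was 0.153, with 49 differences above 0. The range of the members' mouse medians, -0.139 in M60 to 0.068 in M48, included 0, that of the respiratory genes ran from -0.393 to -0.205, and that of the cytosolic ribosomal genes from 0.056 to 0.386. No test of one list against another was made. Of the 71 respiratory genes 13 fell without M60, 18 without M50, 21 without M24 and 28 without M48. In these fits 19.3%, 21.2%, 23.4% and 29.1% of all tested genes were called. Without M60 the respiratory share called in either direction was thus no higher than that of all tested genes. In that fit 1071 of the 11963 tested genes were called lower and 1238 higher. The respiratory genes had 0 higher there, with a median of -0.282. Cytosolic ribosomal genes gave 0 to 2 higher in all 4 left-out fits.

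**Figure D4:**
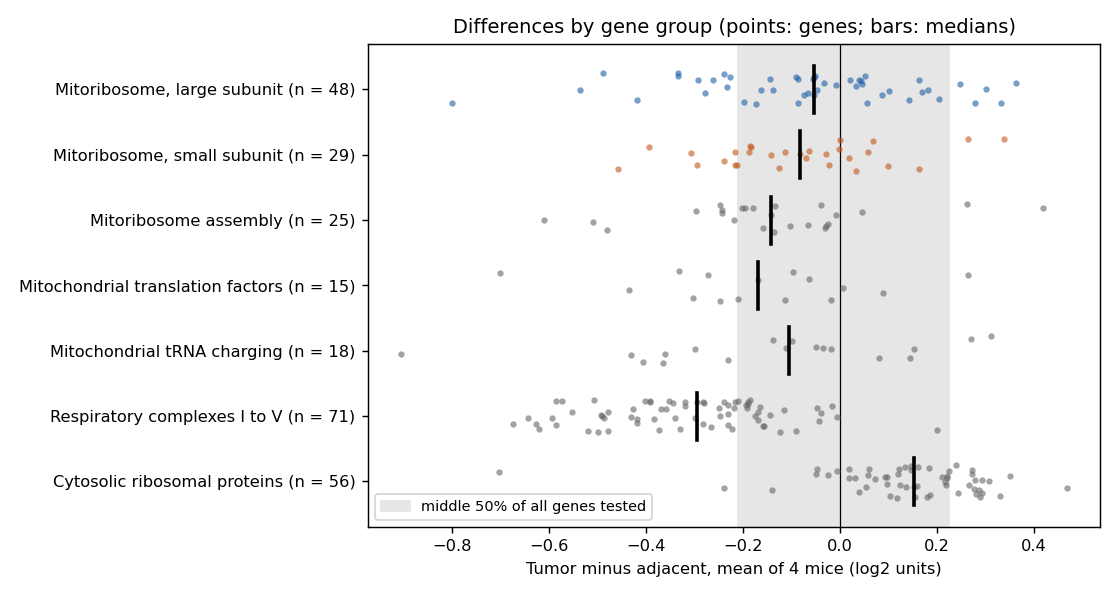
Mean tumor minus adjacent difference (log2 units, 4 mice) of each tested gene in 7 groups, with bars for the medians and grey shading for the middle 50% of all tested genes. The mitochondrial ribosomal protein genes centre just below 0 (-0.055 and -0.084), the respiratory complex genes at -0.295 and the cytosolic ribosomal protein genes at 0.153.

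Members often start back to back with another gene. Of the members matched to promoters, 26 of 68 members (38.2%) had a gene on the opposite strand whose start lay at most 1000 bases away, beside 18.7% of 9555 tested genes. These were 25 pairs, 1 of which joined 2 members, Mrpl46 (-0.055) and Mrps11 (-0.084), whose starts are 42 bases apart. In 20 pairs both genes were tested. In 2 of these pairs both genes fell. Mrpl14 starts 131 bases from Tmem63b, an ion channel gene, within the sequence printed above. Tmem63b was at 8.20, 8.51, 8.50 and 8.55 in adjacent liver of M24, M48, M50 and M60 and at 8.04, 7.92, 7.69 and 7.84 in the tumors. It fell by 0.57 (SE 0.122, adjusted p = 0.0143), a call lost without M50 (0.0581) and M60 (0.0641).

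Mrpl47 starts 308 bases from Ndufb5, a subunit of respiratory complex I, so the Ndufb5 start lies outside the sequence printed above. Ndufb5 was at 9.68, 9.60, 9.90 and 9.79 in adjacent liver of M24, M48, M50 and M60 and at 9.21, 9.17, 9.06 and 9.15 in the tumors. It fell by 0.59 (SE 0.0962, adjusted p = 0.00523), under all alternatives run. In other pairs 1 gene passed and its neighbour did not. Fau, a cytosolic ribosomal protein gene 192 bases from Mrpl49, stood at -0.012 (SE 0.144, adjusted p = 0.957). The chaperonin gene Tcp1, 238 bases from Mrpl18, stood at 0.032 (adjusted p = 0.835), although Mrpl49 and Mrpl18 fell in every setting. Ncapd2, a condensin subunit 614 bases from Mrpl51, rose by 0.53 (adjusted p = 0.00652) beside -0.055 for Mrpl51, and Twnk fell beside Mrpl43, which was at -0.17 (adjusted p = 0.245). Of the 20 tested partners 1 rose and 3 fell, beside 31.9% of all tested genes called. In all, 14 of the 20 pairs had the same sign, 12 of them negative. Of the 77 members 50 lay below 0, beside 5966 of all 11963 tested genes. A link between the genes of a pair was not tested.

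**Figure D5:**
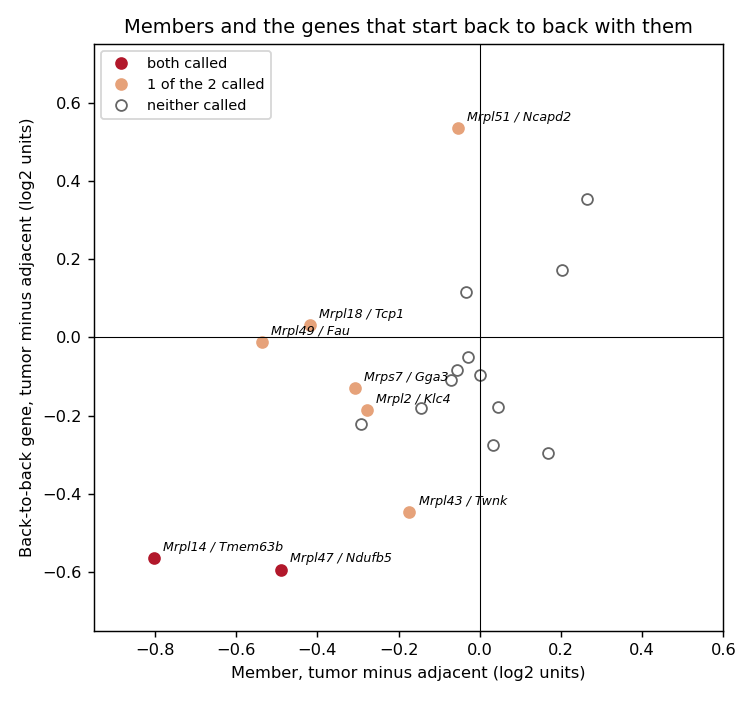
Tumor minus adjacent difference (log2 units) of 20 mitochondrial ribosomal protein genes against that of the gene starting back to back with each. Only Mrpl14 with Tmem63b and Mrpl47 with Ndufb5 have both genes called, in the lower left; Mrpl49 with Fau and Mrpl18 with Tcp1 lie near 0 on the vertical axis.

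Values of other probes and of cell type markers are given here. There were 8 members with 2 probes, of which the one with the higher mean was used: Mrpl23, Mrpl27, Mrpl41, Mrpl47, Mrpl51, Mrps5, Mrps33 and Mrps36. Apart from Mrpl47, none of these genes was called with either probe tested, and the 2 values of Mrpl23 were 0.30 and 0.29 (adjusted p = 0.0855 for the probe used). Mrpl41 changed sign between probes, from 0.046 to -0.066. Mrpl23, Mrpl27, Mrpl48 and Mrps36 have pseudogenes in the reference table whose RNA a probe could share, so their values are uncertain. Hepatocyte markers had summed levels of 16.10 to 16.26 in adjacent liver and 15.99 to 16.23 in tumors (1 of 7 higher, 1 lower). A summed level mainly follows the highest genes of its list and can hide changes of the others. Apoa1 was the 1 hepatocyte marker that rose (0.32) and Cps1 the 1 that fell (-0.84). Cholangiocyte markers went from 7.47 to 7.56 in adjacent liver to 7.92 to 8.82 in tumors (2 of 4 higher). Endothelial markers went from 10.47 to 10.86 to 10.87 to 11.39 (3 of 6 higher). Proliferation genes went from 8.97 to 9.21 to 9.25 to 9.68 (4 of 5 higher). Among these Mki67 rose by 1.79 and Top2a by 1.78, while Pcna, the highest (mean level 8.81), stood at 0.10. Macrophage markers had 2 of 6 higher and 2 lower (9.71 to 11.63, then 10.63 to 11.72). Stellate cell markers had 3 of 6 higher (11.10 to 12.14, then 11.71 to 11.90). Of the latter Col1a1 rose by 1.92 and Col3a1 by 1.94, while Dcn, the highest, stood at -0.25. Of 6 lymphocyte markers 0 were called, and Ncr1, Cd79a and Ms4a1 lay below the filter (summed levels 6.85 to 7.25, then 7.15 to 8.94). At an unadjusted limma p under 0.05 there were 2 (Cd3g and Cd8a). Their part in the members' differences was not tested.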

How the data were processed

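RNA of 8 samples was amplified, labelled with biotin and hybridised to arrays, per the labels' protocols. The authors deposited log2 values; the log base was read from their range (1.92 to 14.49), and medians of 4.89 to 5.01 show arrays already on 1 scale. MAS5 is named in the submitters' processing notes; no source used here gives the other steps. Of a gene's probes naming no other gene, that of highest mean level was kept, and the lowest 40% of genes (below 4.597) were left out. The tissues of each mouse were compared by limma 3.58.1 in R 4.3.3 (lmFit, eBayes with trend), with the mouse as block since both tissues came from the same animal, two-sided, with Benjamini-Hochberg adjustment over 11963 genes. There were 3 residual and 3.64 prior degrees of freedom. Deviations from group means correlated at 0.0986 to 0.421 within mice and -0.378 to 0.189 between mice. The fit was tested on simulated data with independent noise, no mouse effect and fewer changed genes than were called here.

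Members and lists were chosen with earlier results of these data known, so no test was made over a list. The text names all members past the threshold, the 3 nearest to 0 and the highest and lowest mean level of each subunit. It also names Mrpl10, Mrpl12, Mrpl44, Mrpl45, Mrps12, the Mrps18 family, Mrps30, Mrps36 and members with several probes. Of each list up to 4 genes by smallest p are named, except in the respiratory and cytosolic ribosomal lists. Other names, back-to-back pairs included, were chosen after their values were seen. Alternatives were no block, each mouse left out, other filters, quantile normalization, median centring, no trend and probe means. The array's precision is limited by the number of samples.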

Additional observations from a re-analysis of the deposited data

Results flagged for a closer look

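In 99 groups of 4 values (adjacent, tumor and difference for 32 named members, and the 3 medians), 7 had 1 value far from the other 3 by Dixon's gap; about 1 in 20 groups does so by chance. The large subunit median difference of M48, 0.111, stood above the other mice (-0.097 to -0.091). The adjacent liver of M48 was low for Mrpl23 (8.24, others 8.63 to 8.71) and for Mrps27 (6.93, others 7.29 to 7.31). Mrpl33 was high in the adjacent liver of M60 (5.96, others 5.77). Mrpl45 was low in the tumor of M60 (7.35, others 7.49). Mrps18c was low in the tumor of M50 (9.39, others 9.63 to 9.64). The fall of Mrpl18 was smallest in M50 (-0.32, others -0.46 to -0.44). Of the 7 values, 3 belong to M48.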

How the results depend on the processing

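The count of members lower in tumors was 9, and with a mouse left out it ran from 4 to 10; the count of members higher was 3, and ran from 0 to 1 with a mouse left out and was 1 with no replicate block. Over all genes 1945 were higher and 1874 lower, with 1238 to 1759 and 1071 to 1720 when a mouse was left out. Each left-out fit rests on 3 pairs and 2 residual degrees of freedom. Mrpl14, Mrpl18, Mrpl49 and Mrps35 kept their call in all 11 alternatives, and the other 8 called members lost it in 3 to 7. With no replicate block 9 of the 12 calls were kept and 0 added. Medians of the members and of each subunit moved by less than the spread between mice under every alternative run (members: -0.122 without M48 to -0.029 without M60). Left-out fits share 3 pairs with the main fit, so for them this comparison says little. Without M60 the small subunit median went from -0.084 to -0.034, a move close to that spread (standard deviation 0.050). Among the 32 named members, for which each alternative was run gene by gene, signs changed only in ones that did not pass. Mrps23 was 0.0018 after quantile normalization and Mrpl41 -0.0103 with the mean of its probes. With a mouse left out, the ranges of those that crossed 0 were Mrpl10 -0.02427 to 0.1098, Mrpl16 -0.06443 to 0.01833, Mrpl33 -0.1077 to 0.00041, Mrpl44 -0.148 to 0.04244, Mrpl45 -0.2001 to 0.02678, Mrps23 -0.1027 to 0.05466, Mrps27 -0.049 to 0.0301 and Mrps33 -0.05004 to 0.001023. The causes of these changes were not tested. Detection calls and hybridisation batches were not analysed here, so signal over background could not be set per probe.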

Other observations

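Values of a gene were often exactly equal in 2 or more of the 8 samples, in 13 of 77 members (16.9%) and in 13.8% of all tested genes. Mrpl45 was at 7.49 in the tumors of M24, M48 and M50, and Mrpl33 at 5.77 in both tissues of M24 and the adjacent liver of M48, equal to the last deposited digit.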
